A study of Bos taurus with 35 samples.

Results

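Beef muscle sampled 48 h after death was compared with the same muscle of the same animals at 0 h, in 14 of the 35 samples of the series (7 at each time point), which were chosen by the time point and animal in their labels. The muscle was longissimus thoracis et lumborum, the large muscle along the back. It was taken as cores from the left side of the carcass of 7 crossbred heifers weighing 525 to 635 kg, for which the labels give no age. The 0 h core was taken 45 min after death, and the carcasses were kept in a drip cooler. The labels name no treatment, and the groups differ in the time after death, with the cooling of the carcass that goes with it. Since each animal gave 1 core per time point, a difference between time points also holds the difference between places in the muscle, and the 2 cannot be told apart.

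After death a muscle loses its oxygen supply and runs down its ATP. Its glycogen is broken down to lactate, the pH falls, and the fibres contract into rigor before proteases soften them during ageing. Transcripts also decay at different rates once the supply of nucleotides and energy ends. A core of muscle holds fibres together with fat cells, macrophages, lymphocytes, vessels, nerve and connective tissue, and a count per gene is the sum over all of them. Of the muscle markers with a name here, CKM (muscle creatine kinase) and TNNT3 (fast troponin T) were among the genes with the most reads in every library. CKM (ENSBTAG00000013921) ranged from 11235 to 14452 CPM (median 12197) at 0 h and from 15294 to 21409 CPM (median 17437) at 48 h, and its log2 fold change of 0.52 was below the limit for a call.

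The 0 h libraries held 21268791 to 65520943 counted reads, with a median of 53810583, and the 48 h libraries 20568418 to 86084061, with a median of 38352015, so that the ranges of depth overlapped. Levels are given in CPM, the reads of a gene scaled to a common library total, with effective library sizes from the trimmed mean of M values (TMM), and all errors are between animals. Gene symbols were available for 3106 of the 14630 genes tested, because they come from the study's own list of genes that changed at some time point. A gene list below therefore counts its named members, which were selected for having changed, and the share of a list that was called cannot be read against the share of all genes called. Symbols of small RNAs, globins, HSPA1A, HSPA6 and ribosomal proteins belong to families with near-identical copies, for which the counting may have split reads.

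At 48 h, 433 genes were called higher (2.96% of the 14630 tested) and 922 lower (6.3%), 1355 in all (9.26%), at a false discovery rate (FDR) below 0.05 and a fold change above 1.5. Where members of a gene list are counted below, rose and fell mean called higher and called lower. The plot of all genes by log2 fold change and FDR shows the difference in shape between the 2 sides. Among genes called lower, 251 fell by more than 2 fold and 48 by more than 4 fold, whereas 112 of the genes called higher passed 2 fold and 17 passed 4 fold. The median log2 fold change was 0.78 among genes called higher, -0.81 among genes called lower and -0.0048 over all genes. The 7 libraries of each time point did not overlap for 281 of the genes called lower and for 78 of those called higher, against 6.45% of all genes. All 7 animals moved the same way for 671 of the genes called lower (72.8%) and 279 of those called higher (64.4%), against 29% of all genes. The calls were made on these same libraries with animal as a block. Less overlap and more agreement among called genes thus follow in part from the selection. Genes called higher were often of low abundance, since 245 of the 433 (56.6%) had a mean below 1 CPM, compared with 212 of the 922 called lower (23.0%) and 16.9% of all genes. With library size alone as scaling, the median of all genes shifted to -0.09 and the calls became 289 higher and 1254 lower, so that 81.3% of calls were lower instead of 68.0%. With the RNA integrity number (RIN) of each sample as a further covariate, 336 genes were called higher and 659 lower, of which 306 and 621 were called without it.

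**Figure D1:**
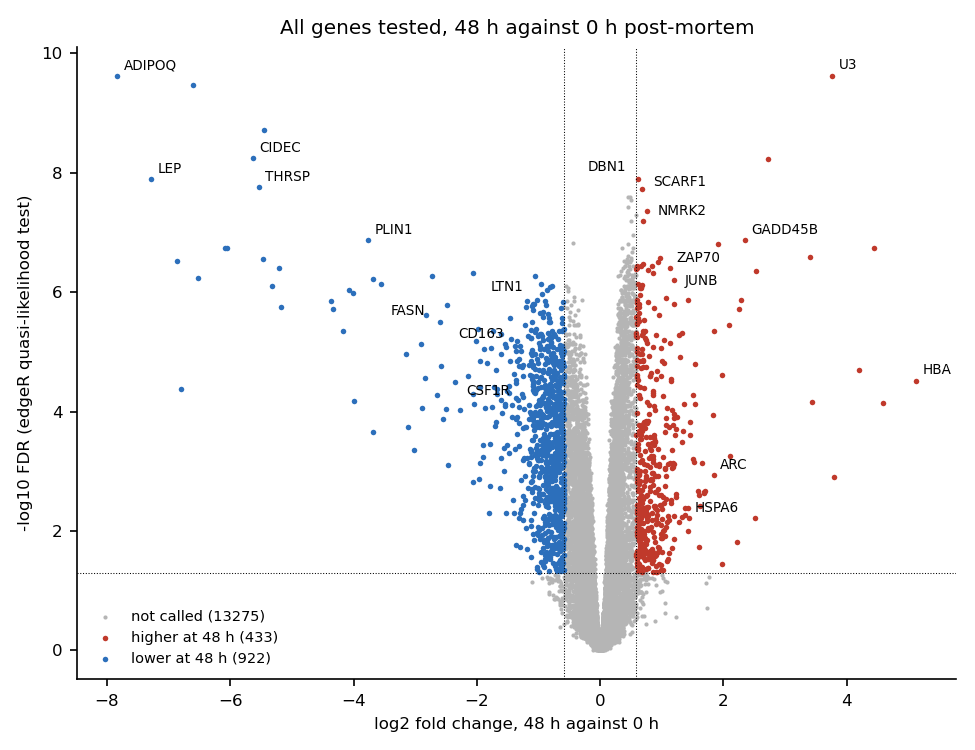
Each point is 1 of the 14630 genes tested, with the log2 fold change at 48 h against 0 h on the horizontal axis and -log10 of the FDR on the vertical axis. Dotted lines mark an FDR of 0.05 and a fold change of 1.5 in either direction. The 922 genes called lower reach much larger changes, led by ADIPOQ at -7.83, than most of the 433 called higher, where HBA stands farthest out at 5.13.

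The size of the change differed between animals, each measured on 1 core per time point. When an animal was left out of the fit and its own change was then read for the genes called from the other 6, between 83.0% and 94.0% of the genes called higher were also higher in it (median 87.5%), and between 78.2% and 98.2% of those called lower were lower (median 94.2%). Over all genes the share lower in an animal was between 47.9% and 52.5%. The median log2 difference of the genes called lower from the others was -1.32 in animal 107 and -1.31 in animal 206, whereas it was -0.20 in animal 104 and -0.39 in animal 202. For genes called higher it ranged from 0.38 in animal 104 to 0.99 in animal 206. Animal 104 thus showed the smallest median change in both directions. The sets of genes behind these medians differed, with 732 to 1100 genes called lower. By the study's sample description, RIN was lower at 48 h than at 0 h in animals 101, 103, 107 and 206. It was equal in 201 and higher in 104 and 202, and its part in these differences was not tested.

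**Figure D2:**
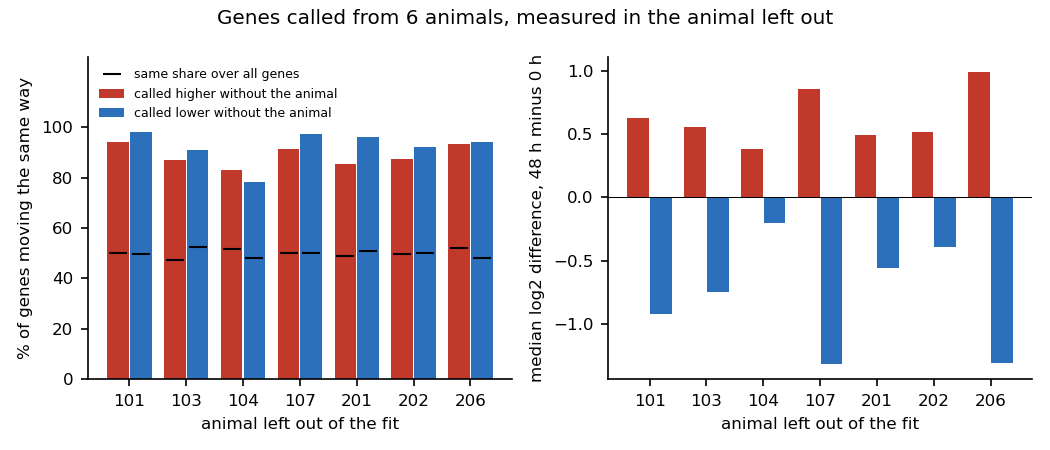
The left panel shows, for each animal, the percentage of genes called from the other 6 animals that moved the same way in it, with black marks for the same share over all genes. The right panel shows the median log2 difference (48 h minus 0 h) of those genes, which runs from -0.20 in animal 104 to -1.32 in animal 107 for genes called lower.

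The largest decreases were in genes of fat cells. Adipocytes between the fibres store triglyceride in a droplet coated by perilipins and release hormones such as adiponectin and leptin. Of 24 adipocyte genes, 17 were named and tested, and 16 of them were called lower at 48 h, with a median log2 fold change of -3.76. The share of all genes called lower was 6.3%, but named genes were selected for having changed, so these shares are not comparable. ADIPOQ (ENSBTAG00000052213), which encodes adiponectin, ranged from 4.55 to 46.2 CPM (median 27.7) at 0 h and from 0 to 0.302 CPM (median 0.0998) at 48 h. The groups were wide apart: 9801 reads over the 0 h libraries became 29 reads over the 48 h libraries, and 2 of the latter had none (log2 fold change -7.83, SE 0.57, FDR = 2.4e-10). LEP (ENSBTAG00000014911), encoding leptin, ranged from 0.721 to 11.98 CPM (median 4.37) at 0 h and from 0 to 0.0554 CPM (median 0.0358) at 48 h. Only 8 reads were counted for it at 48 h, with 2 libraries at 0 (log2 fold change -7.28, SE 0.66, FDR = 1.3e-08). FFAR4, a fatty acid receptor, had 124 reads at 0 h and none in any 48 h library, so that its fold change is a bound of at most -5.19 on the log2 scale for a floor of 3 reads over the group. With this bound in place of the fitted value the median of the list was also -3.76.

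Genes of droplet proteins were also lower, with PLIN1 and CIDEC falling by more than the other droplet genes of the list. PLIN1 (ENSBTAG00000015350), the perilipin that coats the droplet, ranged from 9.34 to 80.0 CPM (median 55.3) at 0 h and from 2.74 to 3.54 CPM (median 3.20) at 48 h. Every 48 h library was below every 0 h library, and the 48 h values lay within a narrow band although the animals had started far apart (log2 fold change -3.76, SE 0.39, FDR = 1.4e-07). CIDEC (ENSBTAG00000007969), which joins droplets into larger ones, ranged from 5.05 to 52.2 CPM (median 31.4) at 0 h and from 0.148 to 1.21 CPM (median 0.352) at 48 h, again without overlap (log2 fold change -5.63, SE 0.48, FDR = 5.7e-09). TRARG1, a regulator of the insulin-dependent glucose transporter, fell from 26.5 to 0.0998 CPM (medians), with a log2 fold change -6.61, SE 0.50, FDR = 3.4e-10. FABP4 (ENSBTAG00000037526), the fatty acid binding protein of adipocytes, ranged from 7.37 to 63.6 CPM (median 42.6) at 0 h and from 2.57 to 14.4 CPM (median 3.22) at 48 h. The groups overlapped because animal 103 was low at the start and animal 101 stayed high at the end, but each animal fell (log2 fold change -2.85, SE 0.48, FDR = 2.8e-05). The lipase gene LIPE (log2 fold change -1.28, FDR = 9.7e-06) and the adipocyte transcription factor PPARG (log2 fold change -0.68, FDR = 0.0024) fell by less, and PPARG was at -0.57 without animal 201, which is below 1.5 fold. CFD (ENSBTAG00000048122), encoding adipsin, was the named member that was not called (log2 fold change -0.19, SE 0.14, FDR = 0.28), with 4 animals lower and 3 higher. The summed level of the named adipocyte genes ranged from 419 to 874 CPM at 0 h and 209 to 359 CPM at 48 h, and was lower in 7 of 7 animals. In tissue of mixed cells, fewer cells of a type and less RNA per cell cannot be told apart.

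Enzymes that make fatty acids and triglycerides followed. In this list 13 of 14 named and tested genes (of 26) were called lower and none higher, with a median of -1.02. SCD (ENSBTAG00000055207), the desaturase that makes oleic acid, had the most reads of those described here and ranged from 187 to 993 CPM (median 538) at 0 h and from 59.9 to 111 CPM (median 79.8) at 48 h. The groups did not overlap (log2 fold change -2.72, SE 0.32, FDR = 5.3e-07). FASN (ENSBTAG00000015980), the fatty acid synthase, ranged from 69.4 to 373 CPM (median 229) at 0 h and from 30.2 to 40.6 CPM (median 37.0) at 48 h, also without overlap (log2 fold change -2.59, SE 0.36, FDR = 3.1e-06). The elongase ELOVL6 (log2 fold change -3.69, FDR = 6.1e-07) and the lipogenic regulator THRSP (log2 fold change -5.54, FDR = 1.7e-08) fell as well. ACSM1 (log2 fold change -5.45, FDR = 1.9e-09), an acyl-CoA synthetase, PCK2 (log2 fold change -3.55, FDR = 7.2e-07), a mitochondrial enzyme of glyceroneogenesis, and MAL2 (log2 fold change -4.01, FDR = 1.0e-06), a membrane trafficking protein, also fell in each animal. MAL2 was at -4.61 without animal 101. The summed level of the named synthesis genes ranged from 586 to 1963 CPM at 0 h and 274 to 421 CPM at 48 h. The 48 h sums were all below the 0 h sums.

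These genes had reached their low level before 48 h. In the same model, which shares its 0 h samples between time points, PLIN1 had a log2 fold change of -0.50 in the 6 h samples, but of -3.77 in those of 24 h and -3.60 in those of 72 h. The step from 24 to 48 h had an FDR of 0.99 for PLIN1, 0.48 for ADIPOQ, 0.45 for SCD and 0.80 for FASN. No further change was detected for these genes by 72 h (FDR of 0.80, 0.85, 0.99 and 0.82).

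**Figure D3:**
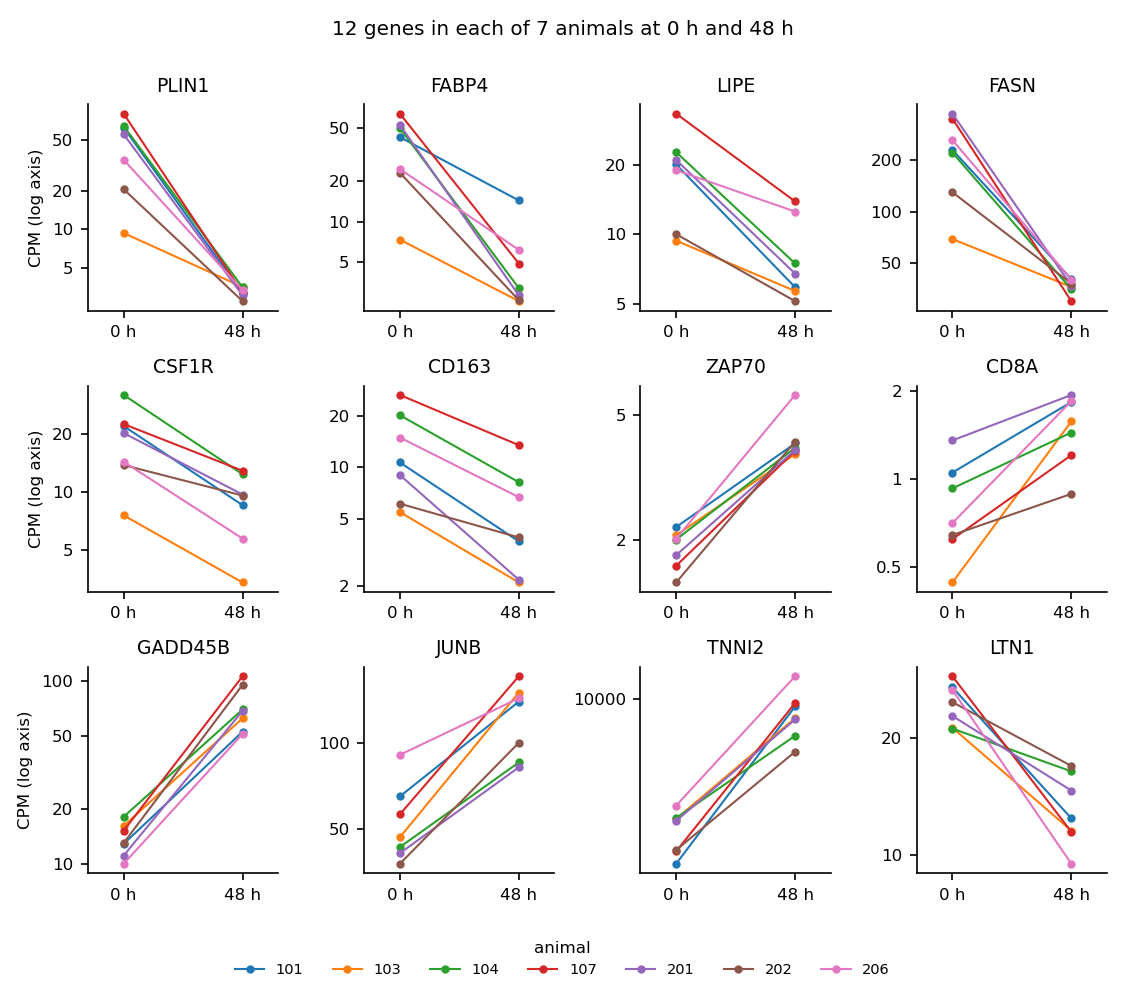
Each panel shows 1 gene in CPM on a log axis, with a line for each of the 7 animals from 0 h to 48 h. PLIN1 and FASN converge on a narrow band at 48 h, from 2.74 to 3.54 CPM for PLIN1, whereas CSF1R and CD163 fall from different levels along near-parallel lines, and ZAP70, GADD45B and TNNI2 rise without overlap.

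Macrophage genes were lower and lymphocyte genes higher. Resident macrophages of muscle depend on the receptor CSF1R, take up haemoglobin through CD163 and carry complement C1q. Of 26 macrophage genes, 20 were named and tested and 17 were called lower, none higher, with a median of -0.98. CSF1R (ENSBTAG00000012771) ranged from 7.57 to 31.9 CPM (median 20.2) at 0 h and from 3.40 to 12.9 CPM (median 9.59) at 48 h. The ranges overlapped since the animals started at different levels, but all 7 fell (log2 fold change -1.09, SE 0.19, FDR = 3.8e-05). CD163 (ENSBTAG00000019669) ranged from 5.46 to 26.6 CPM (median 10.7) at 0 h and from 2.11 to 13.5 CPM (median 3.88) at 48 h and also fell in each animal (log2 fold change -1.29, SE 0.19, FDR = 8.0e-06). The pore-forming MPEG1 (log2 fold change -0.76, FDR = 5.9e-04), the complement receptor VSIG4 (log2 fold change -1.15, FDR = 1.3e-04), the folate receptor FOLR2 (log2 fold change -0.97, FDR = 9.9e-05) and the integrin ITGAM (log2 fold change -1.03, FDR = 3.6e-04) fell. The mannose receptor MRC1 (ENSBTAG00000038048) was not called (log2 fold change -0.57, SE 0.25, FDR = 0.062), but passed the threshold without animal 103 (log2 fold change -0.78, FDR = 0.020) or 202 (log2 fold change -0.64, FDR = 0.049). Unlike the fat genes, CD163 was at -0.17 at 24 h and -1.99 at 72 h, with an FDR of 0.0013 for the step into 48 h and 0.012 for the step after it. CSF1R was at -0.27 and -1.79, with an FDR of 0.0051 and 0.0091 for these steps.

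T cells carry the CD3 complex, which signals through the kinases LCK and ZAP70. All 21 T cell genes that were named and tested (of 25) were called higher at 48 h, with log2 fold changes from 0.59 to 1.46 and a median of 0.83. Their share is not comparable with the 2.96% of all genes called higher, because named genes were selected for having changed. ZAP70 (ENSBTAG00000005892) ranged from 1.47 to 2.21 CPM (median 2.01) at 0 h and from 3.75 to 5.79 CPM (median 3.94) at 48 h. All 48 h libraries were above all 0 h libraries, and animal 206 was highest (log2 fold change 1.14, SE 0.13, FDR = 4.0e-07). CD3E (ENSBTAG00000015710), a chain of the CD3 complex, ranged from 2.41 to 5.48 CPM (median 2.72) at 0 h and from 4.88 to 6.88 CPM (median 5.86) at 48 h and rose in 6 of 7 animals (log2 fold change 0.82, SE 0.17, FDR = 4.1e-04). CD8A (ENSBTAG00000021141), the coreceptor of cytotoxic T cells, ranged from 0.444 to 1.35 CPM (median 0.707) at 0 h and from 0.890 to 1.94 CPM (median 1.57) at 48 h and rose in each animal (log2 fold change 0.89, SE 0.16, FDR = 9.3e-05). The T cell transcription factor TCF7 (log2 fold change 0.80, FDR = 1.1e-04) rose in 6 of 7. The summed level of the list ranged from 15.9 to 26.0 CPM at 0 h and 30.8 to 42.6 CPM at 48 h, so that the groups did not overlap. These are low levels, and the calls in the list numbered 13 with counts thinned to the smallest library and 16 with RIN as a covariate. In the natural killer and cytotoxic cell list, 11 of 13 named and tested genes (of 25) rose, but 8 with RIN as a covariate and 7 with thinned counts or without animal as a block in the model. They included CRTAM (log2 fold change 1.5, FDR = 5.3e-05), an adhesion receptor, CTSW (log2 fold change 1.02, FDR = 5.5e-05), a cathepsin of cytotoxic cells, and IL2RB (log2 fold change 0.68, FDR = 0.0020), a receptor chain for interleukin 2. The Fc receptor FCGR3A (log2 fold change -0.84, FDR = 0.0017), which macrophages also express, fell.

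The B cell list had 3 named and tested members (of 14). CD79B (log2 fold change 1.59, FDR = 0.0021), part of the B cell receptor, rose without overlap and CD79A was called higher too, whereas the complement receptor CR2 (log2 fold change -1.27, FDR = 1.8e-05) fell. The summed level of these 3 genes was lower in 7 of 7 animals although the median of the list was 1.09, because CR2 gave most of the reads in the sum. Of the neutrophil and mast cell genes, 3 were named and tested (of 14) and all 3 rose, including the mast cell tryptase TPSB2 (log2 fold change 0.86, FDR = 5.4e-05) and lactoferrin, LTF (log2 fold change 1.03, FDR = 1.5e-05). The number called higher was 2 with RIN as a covariate, thinned counts or library size alone as scaling, and 1 without the animal block. LTF at 48 h was highest in animal 107, at 6.22 CPM, which was also highest at 0 h.

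Among chemokines, the secreted proteins that guide leukocytes, 6 of 10 named and tested genes (of 29) rose and 2 fell, but 2 rose and 1 fell with thinned counts and likewise without the animal block. CCL21 (ENSBTAG00000010161), which draws lymphocytes and dendritic cells into lymphatics, ranged from 1.21 to 3.79 CPM (median 1.64) at 0 h and from 2.29 to 8.08 CPM (median 4.06) at 48 h and rose in each animal (log2 fold change 1.14, SE 0.19, FDR = 2.8e-05). CXCL8 (ENSBTAG00000019716), which attracts neutrophils, did not exceed 1.09 CPM in any library and rose in 5 of 7 animals (log2 fold change 0.93, SE 0.28, FDR = 0.0074), but had an FDR of 0.051 without animal 107. CCL24 (log2 fold change -1.03, FDR = 4.9e-04), a product of macrophages, fell in 7 of 7. In the interferon response list 6 of 8 named and tested genes (of 32) were lower, but 3 without animal 101 and 2 with thinned counts or without the animal block. Whether the counts of macrophage, lymphocyte and chemokine transcripts moved together because of cell numbers was not tested.

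**Figure D4:**
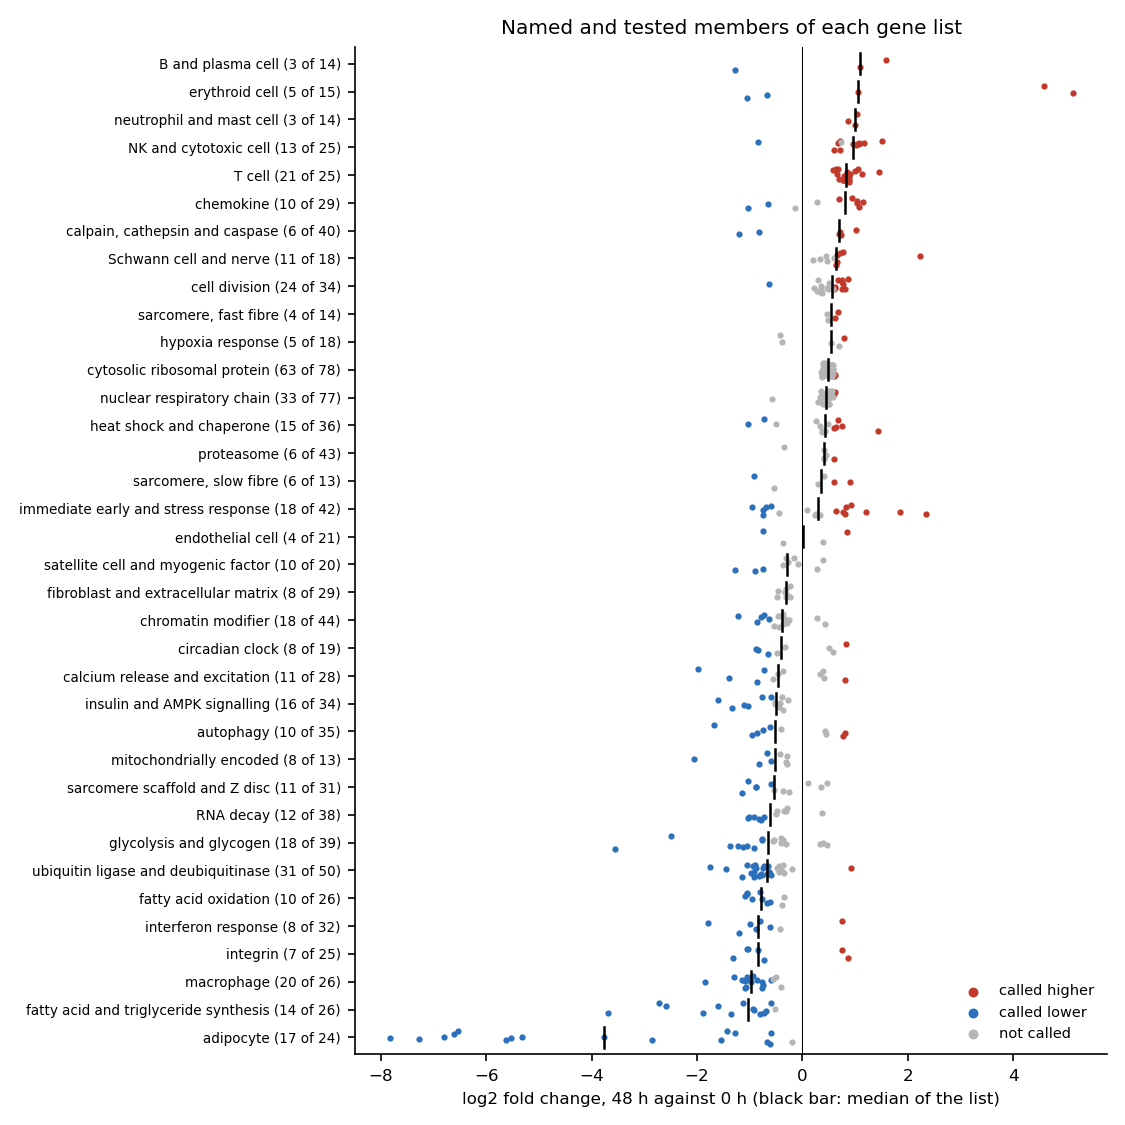
Each point is a named and tested member of 1 of 36 gene lists, placed by its log2 fold change at 48 h against 0 h, with the list median as a black bar and the number named and tested of all list members in brackets. The adipocyte list reaches -7.83 with a median of -3.76, the T cell list lies wholly above 0 with a median of 0.83, and the ribosomal protein genes form a tight group around 0.49.

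Stress genes moved both ways. The list of immediate early and stress response genes had 18 named and tested members (of 42), of which 8 rose and 5 fell. GADD45B (ENSBTAG00000025462), a growth arrest and DNA damage inducible gene, ranged from 10.03 to 18.1 CPM (median 13.0) at 0 h and from 51.5 to 107 CPM (median 68.9) at 48 h. The groups were far from overlapping (log2 fold change 2.35, SE 0.25, FDR = 1.4e-07), and the gene was already at 2.14 at 6 h, with an FDR of 0.37 for the step from 24 to 48 h. JUNB (ENSBTAG00000012046), a subunit of the AP-1 transcription factor, ranged from 37.9 to 91.0 CPM (median 46.9) at 0 h and from 82.3 to 171 CPM (median 139) at 48 h and rose in each animal (log2 fold change 1.21, SE 0.15, FDR = 6.3e-07). ARC (ENSBTAG00000021639), an immediate early gene best known from neurons, ranged from 0.271 to 2.48 CPM (median 1.02) at 0 h and from 0.453 to 9.94 CPM (median 4.69) at 48 h (log2 fold change 1.84, SE 0.44, FDR = 0.0011). The stress-induced regulator NUPR1 (log2 fold change 0.78, FDR = 1.5e-06) and the transcription factor BHLHE40 (log2 fold change 0.83, FDR = 4.4e-04), which responds to hypoxia and the clock, rose in 7 of 7 animals. ATF6 (ENSBTAG00000005227), a sensor of unfolded protein in the endoplasmic reticulum, fell without overlap (log2 fold change -0.76, SE 0.12, FDR = 1.2e-05). The genes called lower numbered 3 with RIN as a covariate.

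Other large increases were in genes of varied function. PNMT (ENSBTAG00000011731), the enzyme that makes adrenaline from noradrenaline, ranged from 0.898 to 4.18 CPM (median 1.57) at 0 h and from 5.51 to 11.8 CPM (median 8.48) at 48 h, with no overlap (log2 fold change 2.09, SE 0.29, FDR = 3.6e-06). The small GTPase RASL11A (log2 fold change 1.21, FDR = 2.4e-04) and TNFSF14 (log2 fold change 1.84, FDR = 1.2e-04), a ligand of the tumour necrosis factor family, also rose in each animal, and TNFSF14 reached 4.86 CPM in animal 103 at 48 h. Heat shock proteins refold damaged proteins and are induced by heat and acid. Of 15 named and tested members (of 36), 5 rose and 2 fell, but 3 rose without animal 101, 107 or 206, with RIN as a covariate or with library size alone as scaling, and 1 without the animal block. HSPA1A (ENSBTAG00000025441) ranged from 975 to 4863 CPM (median 1715) at 0 h and from 1504 to 7744 CPM (median 2572) at 48 h. Animal 103 was highest at both times, and all 7 animals rose (log2 fold change 0.75, SE 0.21, FDR = 0.0044). HSPA6 (ENSBTAG00000039035), a strictly inducible relative, ranged from 2.32 to 162 CPM (median 13.7) at 0 h and from 8.35 to 337 CPM (median 35.3) at 48 h and was likewise highest in animal 103 (log2 fold change 1.44, SE 0.42, FDR = 0.0061). The heat shock transcription factor gene HSF4 (log2 fold change 0.63, FDR = 1.6e-06) rose without overlap, but was at 0.57 without animal 107 and 0.58 without animal 206.

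Transcripts of the contractile apparatus split. All 4 fast fibre genes that were named and tested (of 14) had groups that did not overlap, and 2 passed the limit of 1.5 fold. TNNT3 (ENSBTAG00000022158), fast troponin T, ranged from 10437 to 12943 CPM (median 11517) at 0 h and from 14645 to 20457 CPM (median 17706) at 48 h (log2 fold change 0.63, SE 0.09, FDR = 3.0e-06), and was at 0.58 without animal 101. TNNI2 (ENSBTAG00000010880), fast troponin I, ranged from 5196 to 6548 CPM (median 6165) at 0 h and from 8112 to 10954 CPM (median 9272) at 48 h. Every animal rose, with 206 the highest at both times (log2 fold change 0.67, SE 0.08, FDR = 7.5e-07). In the slow fibre list 2 of 6 named and tested genes (of 13) rose and 1 fell, but none was called in either direction without the animal block. MYBPH (log2 fold change 0.90, FDR = 7.7e-04), a myosin binding protein counted in this list, rose in each animal. ATP2A2 (ENSBTAG00000001398), the calcium pump of slow fibres, spread from 2102 to 3936 CPM (median 2908) at 0 h and from 327 to 3397 CPM (median 1538) at 48 h, with 5 animals lower and 2 higher (log2 fold change -0.91, SE 0.30, FDR = 0.015). It was not called without animal 103 (log2 fold change -0.80, FDR = 0.061), without animal 107 (log2 fold change -0.80, FDR = 0.065) or with RIN as a covariate.

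Some genes of the sarcomere scaffold were lower. Of 11 named and tested Z disc and scaffold genes (of 31), 5 were called lower and none higher, and 3 were called lower without the animal block. In all 8 had negative and 3 positive log2 fold changes, with MYOZ1 and TPM2 higher at an FDR below 0.05 but below 1.5 fold. The summed level of the list was higher at 48 h in 5 of 7 animals. SYNM (ENSBTAG00000011752), a filament protein that ties the Z disc to the membrane, ranged from 733 to 1056 CPM (median 926) at 0 h and from 224 to 626 CPM (median 549) at 48 h, without overlap (log2 fold change -1.03, SE 0.23, FDR = 6.0e-04). SMYD1 (log2 fold change -0.87, FDR = 2.0e-04), a methyltransferase that assists myosin assembly, fell in each animal. Among calcium release and excitation genes, 4 of the 11 named and tested identifiers (of 28 symbols) fell, 2 of them under the symbol COLQ. The calcium channel gene RYR2 (log2 fold change 0.81, FDR = 0.0018) rose at about 1 CPM. Other abundant genes called higher were DBN1 (log2 fold change 0.61, FDR = 1.3e-08), an actin binding protein, NMRK2 (log2 fold change 0.77, FDR = 4.4e-08), a kinase of the NAD salvage route in muscle, PPP1R1A (log2 fold change 0.59, FDR = 4.1e-07), an inhibitor of protein phosphatase, MACROD1 (log2 fold change 0.60, FDR = 3.7e-07), an ADP-ribose hydrolase, and the scavenger receptor SCARF1 (log2 fold change 0.69, FDR = 1.8e-08). All 5 rose in 7 of 7 animals by less than 2 fold. DBN1 was at 0.58 without animal 101, PPP1R1A at 0.56, 0.56 and 0.57 without animal 101, 107 or 206, and MACROD1 at 0.56 and 0.57 without 107 or 206, all below 1.5 fold. Abundant genes called lower were ZNF106 (log2 fold change -1.01, FDR = 5.3e-06), a zinc finger protein, and PDE4DIP (log2 fold change -0.59, FDR = 0.0014), an anchor of phosphodiesterase, with PDE4DIP at -0.48 and -0.47 without animal 107 or 206.

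Among the named genes of the respiratory chain, those encoded in mitochondria were lower and nearly all those encoded in the nucleus were higher. The chain is built from subunits encoded in the mitochondrial genome and many more encoded in the nucleus. Of 13 mitochondrial protein genes, 8 were named and tested, all had negative log2 fold changes, and 4 were called lower. These 8 were ND genes and CYTB, and the rest of the 13 are not covered here. ND6 (ENSBTAG00000043546), which lies on the opposite strand to the other subunit genes, ranged from 10.3 to 40.5 CPM (median 28.1) at 0 h and from 3.61 to 8.53 CPM (median 6.92) at 48 h, without overlap (log2 fold change -2.06, SE 0.24, FDR = 4.7e-07). ND1 (ENSBTAG00000043558) ranged from 5288 to 8858 CPM (median 7209) at 0 h and from 2867 to 7473 CPM (median 3656) at 48 h (log2 fold change -0.82, SE 0.12, FDR = 5.4e-06), and ND5 (log2 fold change -0.66, FDR = 3.0e-04) and ND2 (log2 fold change -0.60, FDR = 8.0e-05) fell in each animal, although ND2 was at -0.54 without animal 103 and -0.57 without 202. The others were below 1.5 fold, with ND4L (log2 fold change -0.43, FDR = 0.0042), CYTB (log2 fold change -0.31, FDR = 0.015), ND3 (log2 fold change -0.29, FDR = 0.031) and ND4 (log2 fold change -0.29, FDR = 0.032). ND4L, CYTB, ND3 and ND4 were lower in 6 of 7 animals. Together the 8 genes made up 3.62% ± 0.45 (SD, n = 7) of the reads of a 0 h library and 2.52% ± 0.73 of a 48 h library. The share fell in 7 of 7 animals, and no test was made since these genes were named for having changed. At 48 h animal 206 stood at 4.06%, above the 1.95% to 2.68% of the others. The log2 fold change of ND1 was -1.19 in the 6 h samples, -1.14 in those of 24 h and -0.56 in those of 72 h, so that 48 h lies between.

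Most named nuclear respiratory chain genes shifted upward by small and even amounts. Of 33 named and tested (of 77), 32 had positive log2 fold changes with a median of 0.44 and passed an FDR of 0.05, and 18 did not overlap between the groups, but only 3 passed 1.5 fold. NDUFA3 (ENSBTAG00000007754), a subunit of complex I, ranged from 46.6 to 72.1 CPM (median 57.2) at 0 h and from 62.7 to 136 CPM (median 86.3) at 48 h (log2 fold change 0.62, SE 0.08, FDR = 2.3e-06), and ATP5ME (log2 fold change 0.59, FDR = 5.0e-06), of ATP synthase, was similar. The core complex I subunit NDUFS1 (ENSBTAG00000021976) went the other way in each animal without being called (log2 fold change -0.57, SE 0.11, FDR = 2.3e-04), and passed 1.5 fold without animal 104 (-0.63), 201 (-0.64) or 202 (-0.63). Cytosolic ribosomal proteins gave the same picture: 63 genes were named and tested (of 78), all 63 were higher at an FDR below 0.05, 53 had groups that did not overlap and the log2 fold changes lay between 0.36 and 0.62, yet 3 passed 1.5 fold. Over all 14630 genes, 3207 were higher at an FDR below 0.05 and 6.45% did not overlap. The genes of the respiratory and ribosomal lists were named for having changed, so their counts cannot be read against these shares. RPL23A (ENSBTAG00000046394) ranged from 81.4 to 107 CPM (median 91.2) at 0 h and from 124 to 177 CPM (median 142) at 48 h (log2 fold change 0.62, SE 0.08, FDR = 7.2e-07). Because these values lie at the limit of 1.5 fold, the calls in the ribosomal list ranged from 0 without animal 107 or 206 to 7 without 103, 6 without 202 and 13 without 104. Those in the nuclear respiratory list ranged from 0 without 107 or 206 to 5 without 101, 103 or 202 and 6 without 104. No gene of either list was called higher with library size alone as scaling, and 1 respiratory gene was then called lower. With RIN as a covariate 0 respiratory genes and 1 ribosomal gene were called. NDUFA3 was at 0.57 and 0.56 without 107 or 206, ATP5ME at 0.55, 0.57 and 0.52 without 107, 201 or 206, and RPL23A at 0.58 and 0.56 without 107 or 206.

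Among genes of fuel use, decreases outnumbered increases. Of the fatty acid oxidation genes, 8 of 10 named and tested (of 26) fell and none rose, and 5 fell without the animal block. PPARA (ENSBTAG00000008063), the transcription factor that drives this pathway, ranged from 27.5 to 42.2 CPM (median 35.7) at 0 h and from 9.33 to 25.8 CPM (median 16.8) at 48 h, without overlap (log2 fold change -1.09, SE 0.18, FDR = 1.8e-05). OXCT1 (log2 fold change -0.77, FDR = 1.1e-05), which uses ketone bodies, fell in each animal. In the insulin and AMPK signalling list all 16 named and tested genes (of 34) had negative log2 fold changes and 6 were called. PRKAA2 (ENSBTAG00000018747), the muscle form of the catalytic subunit of AMPK, the energy sensor, ranged from 18.3 to 28.0 CPM (median 23.3) at 0 h and from 3.39 to 13.8 CPM (median 8.05) at 48 h and did not overlap (log2 fold change -1.61, SE 0.23, FDR = 5.1e-06). The insulin receptor INSR (log2 fold change -0.77, FDR = 1.0e-05), the kinase PDPK1 (log2 fold change -1.03, FDR = 4.3e-05) and the sestrin SESN3 (log2 fold change -1.11, FDR = 1.7e-06) also fell without overlap. In glycolysis and glycogen metabolism, 9 of 18 named and tested genes (of 39) were called lower and none higher. They included PGM2L1 (log2 fold change -1.12, FDR = 1.1e-04), a sugar bisphosphate synthase, and PDPR (log2 fold change -1.05, FDR = 4.5e-05), a regulator of pyruvate dehydrogenase phosphatase. All 9 were genes of glycogen, gluconeogenesis or regulation, and no glycolytic enzyme was among them. Of the 18, 15 had negative and 3 positive log2 fold changes. The 3 were ENO3 and PGAM2, both of glycolysis, and PFKFB1, all at an FDR below 0.05 but below 1.5 fold. The summed level of the list was higher at 48 h in 5 of 7 animals. The glucose transporter SLC2A3 (log2 fold change 0.80, FDR = 1.2e-05) rose in each animal and was the only one of 5 named and tested hypoxia response genes (of 18) to be called.

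Ubiquitin ligases tag proteins for the proteasome, and deubiquitinases remove the tag. Of 50 such genes, 31 were named and tested, 21 fell and 1 rose, with a median of -0.68. Without animal 206 the genes called lower numbered 13, and with RIN as a covariate 14. LTN1 (ENSBTAG00000000201), a ligase of stalled ribosomes, ranged from 21.2 to 29.0 CPM (median 24.8) at 0 h and from 9.48 to 17.0 CPM (median 12.4) at 48 h, without overlap (log2 fold change -0.90, SE 0.12, FDR = 1.4e-06). FBXO32 (ENSBTAG00000016194), the atrogin ligase of muscle wasting, ranged from 117 to 271 CPM (median 169.6) at 0 h and from 48.4 to 123 CPM (median 96.0) at 48 h and fell in each animal (log2 fold change -0.97, SE 0.16, FDR = 2.8e-05). USP24 (log2 fold change -0.88, FDR = 4.1e-05), a deubiquitinase, and the ligases UBR1 (log2 fold change -0.78, FDR = 1.2e-05) and HERC1 (log2 fold change -1.45, FDR = 6.0e-06) fell, and RNF207 (log2 fold change 0.91, FDR = 5.3e-06), a ligase of heart muscle, rose. Of 6 named and tested proteasome genes (of 43), the assembly chaperone PSMG4 (log2 fold change 0.59, FDR = 1.9e-06) alone was called, 5 of the 6 had positive log2 fold changes and the median was 0.41. PSMG4 was below 1.5 fold without animal 101 (0.57), 103 (0.57), 107 (0.56) or 206 (0.57). In autophagy 5 of 10 named and tested genes (of 35) fell and 2 rose. WDFY3 (log2 fold change -0.86, FDR = 9.2e-07), which links cargo to the autophagosome, fell without overlap, UVRAG (log2 fold change -1.67, FDR = 5.1e-05), a subunit of the phosphatidylinositol kinase complex, fell in each animal, and ATG101 (log2 fold change 0.77, FDR = 6.8e-05), of the initiation complex, rose. UVRAG was at -1.48 by 24 h, whereas LTN1 was at -0.34 at 24 h and -1.51 at 72 h.

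Calpains, the calcium proteases that tenderise meat, cathepsins and caspases were mostly without a name here, with 6 of 40 genes of that list named and tested and no calpain or caspase among them. Of these 6, 4 rose and 2 fell, and 2 rose with thinned counts. Some of the 6, CTSW among them, were also counted above in the cytotoxic cell or ubiquitin lists. CST6 (ENSBTAG00000046587), an inhibitor of cathepsins, ranged from 38.7 to 80.5 CPM (median 68.9) at 0 h and from 74.6 to 151 CPM (median 108) at 48 h and rose in each animal (log2 fold change 0.74, SE 0.11, FDR = 6.4e-06). BCL2 (log2 fold change -1.21, FDR = 1.8e-06), an inhibitor of apoptosis, fell without overlap. Of 12 named and tested RNA decay genes (of 38), 11 had negative and 1 a positive log2 fold change, and 6 were called lower and none higher. Those called lower included DICER1 (log2 fold change -0.82, FDR = 8.0e-06), which cuts microRNA precursors, PUM2 (log2 fold change -0.72, FDR = 3.7e-05), which binds target mRNAs, and XRN1 (log2 fold change -0.79, FDR = 2.1e-05), the exonuclease that degrades decapped mRNA. Of 18 chromatin modifier genes (of 44), 5 fell, led by the methyltransferase SETD7 (log2 fold change -1.23, FDR = 9.1e-05) and the DNA demethylase TET1 (log2 fold change -0.78, FDR = 5.4e-05), and the number was 3 without animal 206, with RIN as a covariate or without the animal block. Of 8 clock genes (of 19), CLOCK (log2 fold change -0.85, FDR = 1.7e-04) and NR1D2 (log2 fold change -0.88, FDR = 3.4e-04) were called lower together with RORA, and BHLHE40 was called higher. In all 5 had negative and 3 positive log2 fold changes, with NPAS2 and PER1 higher at an FDR below 0.05 but below 1.5 fold. The summed level of the clock list was higher at 48 h in 7 of 7 animals.

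Some of these genes were still in motion at 48 h. From the earliest to the latest of the 4 times after 0 h, PRKAA2 had log2 fold changes of -0.07, -0.54, -1.61 and -2.59. Its step into 48 h had an FDR of 0.0038 and the step after it 0.0041. USP24 was at -0.20, -0.34, -0.88 and -1.58, with an FDR of 0.014 and 0.0016 for these steps. Among genes called higher, TNNI2 was at 0.20 at 24 h and 0.99 at 72 h (FDR of 0.0013 and 0.0047), and NMRK2 at 0.40 and 1.25 (FDR of 0.0031 and 1.7e-04). JUNB changed less after its early rise, from 0.94 at 24 h to 1.32 at 72 h, and neither step passed the threshold (FDR of 0.19 and 0.57).

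**Figure D5:**
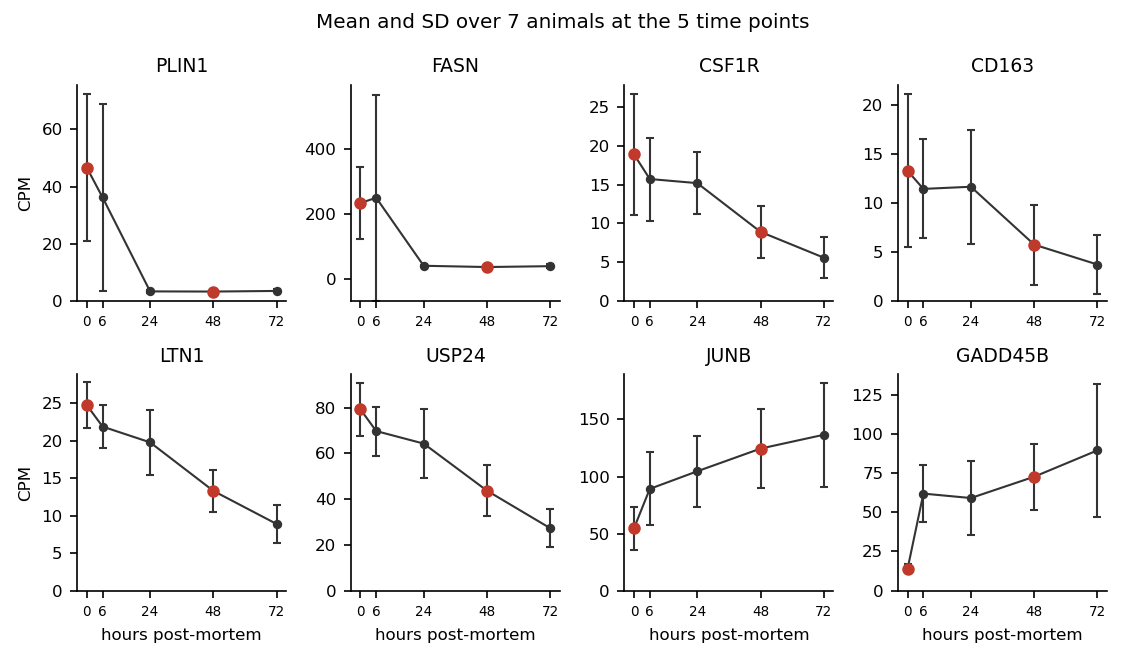
Mean CPM with SD over 7 animals is plotted against hours post-mortem for 8 genes, with the 0 h and 48 h means in red. PLIN1 and FASN are flat from 24 h on, CSF1R, CD163, LTN1 and USP24 fall further between 24, 48 and 72 h, and GADD45B has most of its rise by 6 h, when its log2 fold change was 2.14.

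Small non-coding RNAs stood among the largest increases. Small nucleolar RNAs (snoRNAs) guide the modification and cutting of ribosomal RNA, and many are cut from introns of other genes, whose reads they share. In a library made from polyadenylated mRNA their mature forms are poorly captured. The type of a gene comes from the same list of changed genes as its symbol. Of 43 snoRNA genes with a type and tested, 26 were called higher and 1 lower. Over all genes 2.96% were called higher and 6.3% lower, but genes with a type were selected for having changed, so these shares are not comparable. U3 (ENSBTAG00000028359), needed for the first cuts of the ribosomal RNA precursor, ranged from 0.0555 to 0.502 CPM (median 0.124) at 0 h and from 1.36 to 4.34 CPM (median 1.69) at 48 h. It went from 62 reads over the 0 h libraries to 612 over the 48 h libraries, without overlap (log2 fold change 3.77, SE 0.27, FDR = 2.4e-10). SNORA57 (ENSBTAG00000042273) went from 18 to 321 reads (log2 fold change 4.45, SE 0.48, FDR = 1.8e-07). SNORD14 (ENSBTAG00000043480) also rose in each animal (log2 fold change 1.62, FDR = 0.0038). 5_8S_rRNA (ENSBTAG00000048608), a ribosomal RNA gene, ranged from 23.0 to 43.6 CPM (median 33.3) at 0 h and from 104 to 363 CPM (median 221) at 48 h (log2 fold change 2.53, SE 0.29, FDR = 4.3e-07). Most of the snoRNA levels were below 1 CPM. Since the 5.8S gene has near-identical copies and is removed by polyA selection to an unknown degree, its share of counts may not follow its amount in the tissue.

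Of 21 loci of microRNA precursors with a type and tested, 12 were called lower and 2 higher. For the same reason these counts cannot be read against the 6.3% and 2.96% of all genes. Of the microRNA genes called, 4 had a mean of at least 1 CPM and all 4 fell: bta-mir-29c (log2 fold change -1.67, FDR = 4.1e-05) and MIR1-2 (log2 fold change -0.79, FDR = 0.0023) in 6 of 7 animals, and bta-mir-12003 (log2 fold change -0.70, FDR = 0.0019) and bta-mir-10181 (log2 fold change -0.63, FDR = 0.0025) in each animal. These counts come from the gene of the precursor and do not measure the mature microRNA. Of 103 long non-coding RNA genes with a type and tested, 19 were called higher and 36 lower. These genes too were selected for having changed, so the counts cannot be read against the shares of all genes. Among those called, 32 had a mean below 1 CPM and 28 moved the same way in 7 of 7 animals. The one of lowest FDR, ENSBTAG00000052369, which has no symbol, ranged from 7.76 to 25.8 CPM (median 14.8) at 0 h and from 56.6 to 174 CPM (median 92.3) at 48 h. Its groups did not overlap (log2 fold change 2.72, SE 0.24, FDR = 6.0e-09). Of 5 mitochondrial transfer RNA genes with a type and tested, selected in the same way, 3 were called lower, 2 of them at a mean below 1 CPM. The 2 mitochondrial ribosomal RNA genes, neither of them called, had a median log2 fold change of 0.37.

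Some genes of minor cell types had their highest 48 h levels in few carcasses. HBA (ENSBTAG00000051412), a globin chain of red blood cells, ranged from 0 to 0.460 CPM (median 0.0173) at 0 h and from 0.0754 to 14.1 CPM (median 0.853) at 48 h. Animal 101 held 14.1 CPM and the next animal 1.68 CPM (log2 fold change 5.13, SE 0.86, FDR = 3.0e-05), and the log2 fold change was 3.41 without animal 101, 5.97 without 202 and 5.73 without 206. HBB (ENSBTAG00000037644) reached 58.0 CPM in the same library and 6.61 CPM in the next (log2 fold change 4.59, SE 0.83, FDR = 7.2e-05), and its log2 fold change was 3.08 without animal 101 and 5.24 without animal 202. The transferrin receptor TFRC (log2 fold change -1.05, FDR = 0.0018), which muscle also expresses, fell. Of 11 Schwann cell and nerve genes named and tested (of 18), all had positive log2 fold changes and 6 were called, but 1 without animal 101, 3 without 104, 3 without 107, 2 with RIN as a covariate, thinned counts or library size alone as scaling, and 1 without the animal block. NEFM (ENSBTAG00000039530), a neurofilament, was at 8.42 CPM in its highest 48 h library against a median of 0.277 CPM (log2 fold change 2.23, SE 0.74, FDR = 0.015), and was not called without animal 101 (log2 fold change 1.39, FDR = 0.18). Cell division genes had 11 of 24 named and tested members (of 34) higher and 1 lower, but 7 higher without animal 101, 6 without 206 or with library size alone as scaling, 5 with thinned counts and 3 without the animal block. UBE2C (log2 fold change 0.75, FDR = 2.6e-04) and AURKB (log2 fold change 0.77, FDR = 0.0040), both of mitosis, rose in each animal at levels near 1 CPM or below.

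None of the 8 named and tested fibroblast and extracellular matrix genes (of 29) was called, with a median of -0.31 and 8 of 8 negative, but 2 were called lower with RIN as a covariate. Of 10 satellite cell and myogenic genes (of 20), 3 fell, and 1 without the animal block. Of 4 endothelial genes (of 21), ACKR1 (log2 fold change 0.84, FDR = 0.0066), a chemokine receptor of venules, rose and MCAM (log2 fold change -0.74, FDR = 1.3e-05), an adhesion molecule, fell. Integrins, which anchor cells to the matrix, had 5 of 7 named and tested members (of 25) lower and 2 higher, and 3 lower and 1 higher without the animal block. ITGAV (ENSBTAG00000019929) ranged from 22.2 to 32.9 CPM (median 24.1) at 0 h and from 8.48 to 18.3 CPM (median 11.8) at 48 h, without overlap (log2 fold change -1.06, SE 0.13, FDR = 5.3e-07), and ITGB6 (log2 fold change -1.31, FDR = 3.7e-04) was similar.

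The counts became more concentrated in abundant genes. The 100 most abundant genes held 53.5% ± 1.24 (SD, n = 7) of the reads in 0 h libraries and 56.1% ± 0.83 in 48 h libraries. The share was higher in 7 of 7 animals, by 2.63 ± 1.18 percentage points, and an exact sign flip test (two-sided) gave p = 0.016, the least that 7 pairs can give (0.031 after Benjamini-Hochberg adjustment over 2 tests). For the 20 most abundant genes the shares were 30.9% and 34.4%. The number of genes at 1 CPM or more was 12127 ± 149 at 0 h and 12028 ± 80.4 at 48 h, lower in 5 of 7 animals (exact p = 0.12). At 5 CPM or more it was 9055 ± 128.4 at 0 h and 8786 ± 57.4 at 48 h, lower in 7 of 7 animals (exact p = 0.016). This limit of 5 CPM was an alternative setting outside the 2 adjusted tests. CPM in both of these counts of genes were scaled to the library total without TMM. With that scaling the median log2 fold change of all genes was -0.09, which by itself lowers the number of genes above a fixed limit. Genes were also ranked by mean level and cut into 5 classes of 2926. In the class of lowest level, 274 genes were called higher and 245 lower, whereas the class of highest level had 41 higher and 138 lower, and the class next to it 18 higher and 159 lower. Genes called higher were thus mostly of low level, while genes called lower were found at all levels.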

How the data were processed

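RNA-Seq was run on 35 muscle cores, 1 per animal and time point, of which the 14 of 0 h and 48 h are compared here. The authors trimmed reads with Trimmomatic 0.39, mapped them to the bovine assembly ARS-UCD1.2 with STAR 2.7.0f and counted them per gene with featureCounts 1.6.4. The deposited values are raw counts of 27607 genes, not normalized, in a table named as reverse strand. The methods describe stranded counting but list an option for unstranded counting. The labels and the methods name different mRNA library kits. RIN values were taken from the study's sample description and used as a covariate and for the direction of their change in each animal.

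All 35 samples were fitted with edgeR 4.0.16 in R 4.3.3: filterByExpr by time point with a minimum count of 10 (14630 genes kept), TMM (factors 0.941 to 1.09 in the 14 libraries), animal as a block plus time point, and the quasi-likelihood test of 48 h against 0 h. Every FDR is a Benjamini-Hochberg adjusted p of this test over all genes kept, and every SE is derived from its F statistic. The 24 to 48 h and 48 to 72 h steps are contrasts of the same fit. CPM use TMM-scaled library sizes, except in the numbers of genes at 1 or 5 CPM and the choice of the most abundant genes, which use plain library totals. Log2 differences within an animal add a prior count of 2. The fit was checked on simulated counts. Values that are 1 per library used exact sign flip tests over 128 sign patterns.

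An animal number marks 1 carcass. The departures of its 0 h and 48 h libraries from their group means correlated with a median r of 0.58 (0.36 to 0.63, 7 of 7 pairs over 0.1), so that the block pairs the samples. Between animals the median r was -0.09. With the group means subtracted, positive values within animals force those between animals below 0 on average, so the -0.09 is not an independent reference.

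The comparison, its 36 gene lists and the tests were chosen with earlier results of these data known. A gene could stand in more than 1 list and was then counted in each. Named genes follow a rule: the 10 largest changes and the 5 lowest FDR and 5 highest mean CPM in each direction among genes called, that have a symbol, average 1 CPM or more and moved the same way in 7 of 7 animals, the called list members of lowest FDR by direction and role, the mitochondrially encoded genes and the microRNA genes called at 1 CPM or more. The rule gives 151 genes, of which 117 are described with values, and a few of the rest are not reported here. A further 6 (CFD, CKM, HBB, MRC1, NDUFS1 and SNORA57), the long non-coding gene and the choice of which of the 151 to describe were made after their values were seen. So was the choice of ENO3, PGAM2, PFKFB1, MYOZ1, TPM2, NPAS2 and PER1, which are named without values and not counted among the genes described. Symbols come from the study's list of changed genes, part of which was not used here, so lists have no test. A planned test of the mitochondrial share was not run for the same reason. Gene length, genome positions and microRNA sequences were not used here.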

Additional observations from a re-analysis of the deposited data

Results flagged for a closer look

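In each group of 7 libraries the highest and lowest values of the genes described and of the library shares were compared with the rest, and 28 of 252 groups (11.1%) had 1 library that stood apart by more than Dixon's critical value. Chance flags about 1 in 20 groups, the test assumes values that are not skewed, and genes of a pathway are not independent, so these are values to look at and no more. No explanation was tested.

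Globins were high in few libraries. At 48 h animal 101 had 58.0 CPM of HBB (next 6.61) and 14.1 CPM of HBA (next 1.68), and at 0 h animal 202 had 3.13 CPM of HBB and 0.460 CPM of HBA. The same 48 h library of animal 101 had 14.4 CPM of FABP4 (next 6.19).

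Animal 206 was highest at 48 h in mitochondrially encoded genes, with 12204 CPM of CYTB (next 7659), 11289.7 of ND4 (next 7700.1) and 7473 of ND1 (next 4179.6), and with 4.06% of counts in these genes. It was also highest in ATP5ME (257 CPM), DBN1 (862 CPM), MCAM (26.3 CPM) and ZAP70 (5.79 CPM). For ND2 it was animal 201 at 0 h that stood apart, as the lowest at 2548 CPM.

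Animal 103 had the highest heat shock levels, with 4863 CPM of HSPA1A at 0 h, and 162 CPM of HSPA6 at 0 h and 337 CPM at 48 h. It was also highest in MACROD1 (901 CPM) and SNORD14 (3.77 CPM) at 0 h and in TNFSF14 at 48 h (4.86 CPM). Animal 107 was highest in LTF at both times (2.10 and 6.22 CPM), in U3 at 0 h (0.502 CPM) and in TRARG1 at 48 h (0.716 CPM). The remaining values were IL2RB in animal 201 at 48 h (7.897 CPM, highest), and in animal 202 TET1 at 0 h (7.54 CPM, highest), UBE2C at 0 h (0.230 CPM, lowest) and PPP1R1A at 48 h (1239 CPM, lowest).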

How the results depend on the processing

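None of the genes described and none of the counts or shares per library reversed its direction under the alternatives run, whereas the median log2 fold change of all genes lay between -0.09 and 0.0052 and so changed sign. The counts of genes called stayed within 1.5 times of the reported 433 higher and 922 lower under DESeq2 size factors, the DESeq2 Wald test, the edgeR likelihood ratio test, limma voom, no filter on low counts, a fit of the 14 samples, RIN as a covariate, thinned counts and library size alone. A filter of 1 CPM in 7 samples gave 252 higher and 710 lower from 12569 genes tested. A test against a fold change of 1.5 gave 35 and 120, an FDR below 0.05 alone gave 3207 and 3438, and a limit of 2 fold gave 112 and 251. Without each animal in turn the calls ranged from 333 to 485 higher and from 732 to 1100 lower. With no replicate block, so that the animals were not paired, 296 genes were called higher and 682 lower. The change in genes at 5 CPM or more was -269.1 (exact p = 0.016, not adjusted), a detection limit at which 7 of 7 animals were lower. At 1 CPM it was -138.5 to -72.7 without 1 animal. Both used library totals without TMM. The share of the top 100 genes rose by 2.37 to 2.87 points and the mitochondrial share changed by -1.27 to -0.99 without 1 animal. Of 2576 values of the 123 genes described over these alternatives, 2335 kept their side of the threshold, 228 lost the call, 80 of them under the test against 1.5 fold and 58 under the limit of 2 fold, and 13 gained it. Of the 115 of these genes that were called, 81 were tested and called under each of the 18 settings that keep the limits of FDR and 1.5 fold. The cause of these differences was not tested. The planned analysis of gene length was not run. Depth limits the genes below 1 CPM, which are 56.6% of those called higher.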
